A study of Mus musculus with 3 samples.

Results

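The genes described are 10 genes of endoplasmic reticulum (ER) stress and of the integrated stress response, chosen by their symbols. They are the ER chaperones Hspa5, Hsp90b1, Pdia4, Calr and Serpinh1, the stress transcription factors Xbp1, Atf4 and Ddit3, and Trib3 and Asns, which are known targets of ATF4. Each symbol matched 1 row of the count files, so the set holds 10 of 46603 genes. The RNA came from KO-actin cells, which are mouse embryonic fibroblasts (MEFs) with the genotype Beta-actin KO-NLS. In these cells β-actin was knocked out and NLS-tagged β-actin, a form with a nuclear localization signal, was then expressed. PolyA RNA was sequenced from 3 replicates of this 1 condition, and no treatment, time point or age is given. The labels do not say whether the replicates were separate cultures, so the spread between them may be technical. The vector that drives the tagged protein and the number of clones behind the line are not given in the sources used here. Libraries of KO and wild-type MEFs were not analysed here, so each value describes KO-actin cells alone and none is a change caused by the loss or return of β-actin.

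The libraries held 49932446, 49587453 and 44383636 counts for replicates 1, 2 and 3. The returned gene Actb was counted at 1078, 1114 and 1063 CPM, which are counts relative to the scaled size of each library, and gene counts do not tell the tagged copy from RNA of the knocked-out locus. Scaling followed the TMM method of edgeR, and the 13814 genes counted 10 times or more in each library were tested. At 1 CPM or more in every library, 9 of 10 fibroblast markers were detected, with Thy1 the exception at 29 to 49 counts. Other markers passed that limit for 2 of 8 osteoblast and chondrocyte genes (Col2a1 and Matn3), 0 of 6 plasma and B cell genes, 1 of 6 myeloid genes (Cd68) and 2 of 6 epithelial genes (Krt18 and Krt8). The summed level of the fibroblast list ran from 12473 to 13469 CPM, against 4.07 to 5.37 CPM for osteoblast and chondrocyte, 0.0448 to 0.220 CPM for plasma and B cell, 7.51 to 10.3 CPM for myeloid and 38.4 to 40.3 CPM for epithelial markers. Most of the fibroblast sum came from Vim, Col1a1 and Fn1, with means of 4563, 4058 and 3578 CPM, while Postn was at 14.9 CPM. The epithelial sum was nearly all Krt18, while Epcam, which defines epithelial cells, had 0 or 1 count in each library. Plasma cells are known to carry much ER chaperone RNA, and of their list Pou2af1 had 0 counts in all 3 libraries.

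The ER folds the proteins that a cell secretes, and a fibroblast secretes large amounts of collagen. Unfolded protein in the ER is sensed by IRE1, PERK and ATF6, which together start the unfolded protein response. IRE1 splices Xbp1 mRNA into a form that encodes an active transcription factor, ATF6 is cut to release another factor, and PERK phosphorylates eIF2. Phosphorylated eIF2, which other kinases also produce upon amino acid shortage, heme deficiency or viral RNA, slows translation in general but favours translation of Atf4 mRNA. ATF4 in turn activates genes of amino acid supply and Ddit3, which encodes the factor CHOP. Gene counts hold only the amount of mRNA, so splicing of Xbp1, phosphorylation of eIF2 and translation of Atf4 were not measured.

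The promoters of the 10 genes were read first, since a sequence shared by several of the chaperones is known to tie them to ATF6 and XBP1. This is the ER stress response element (ERSE), written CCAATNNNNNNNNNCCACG and searched on both strands, from 250 bases before to 50 bases after each RefSeq start on GRCm38.p6. It was found in 3 of the 5 chaperones, Hspa5, Hsp90b1 and Calr, in 0 of 3 transcription factors and in 0 of 2 ATF4 targets. Of all 32851 RefSeq promoters of the same length, 39 held it, which is 0.119%. The element was already known from chaperone promoters, so finding it in chaperones is no independent result. The stretches that hold the element are given on the strand of each gene, with its CCAAT and CCACG ends, or their reverse complements ATTGG and CGTGG, in capitals. The Hspa5 stretch is chr2:34772015-34772053 on the plus strand, the Hsp90b1 stretch is chr10:86705523-86705666 on the minus strand and the Calr stretch is chr8:84847065-84847103 on the minus strand.
Hspa5: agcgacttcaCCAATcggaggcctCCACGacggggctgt
Hsp90b1: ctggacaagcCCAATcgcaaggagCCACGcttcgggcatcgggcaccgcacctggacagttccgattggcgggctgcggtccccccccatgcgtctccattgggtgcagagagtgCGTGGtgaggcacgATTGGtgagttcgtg
Calr: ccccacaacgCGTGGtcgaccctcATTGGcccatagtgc

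The element of Hspa5 lay from -65 to -47 relative to the start, in the orientation of the gene. Hsp90b1 held it at -212 to -194 in the orientation of the gene and again at -107 to -89 in the reverse orientation. Calr held it at -162 to -144, also reversed. The parts of the element are common on their own, and each full match also counts as a match to both of them. CCAAT occurred in 37.4% of all promoters and in 6 of the 10 genes, and CCACG in 32.8% of all promoters and in 7 of the 10. Pdia4 held both parts, but not at the spacing of the element, and Serpinh1 held only CCACG. The ERSE was searched with no mismatch allowed, so variant forms could have been missed in any of the 10 genes. The C/EBP-ATF response element was searched on both strands only as TGATGNAAT, and forms with another last base were not searched. TGATGNAAT occurred in 0.965% of all promoters and in 0 of the 10 genes, so other forms could have been missed. The core of the XBP1 element, TGACGTGG, which holds the reverse complement of CCACG, occurred in 0.676% of all promoters and likewise in 0 of the 10. These matches describe letters in a window and are not measured binding.

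Among wider lists of genes, 17 other ER chaperones and folding enzymes were matched by symbol to the RefSeq promoters searched. The ERSE was found in 5 of these 17, namely Canx, Creld2, Dnajc3, Ero1b and Pdia6. It was also found in 2 of the 11 matched genes of ER-associated degradation, Derl3 and Syvn1. In all, 37 of 27025 genes had an ERSE promoter, of which 3 were among the 10 genes, 7 were in the wider lists and 27 in neither. Of the 37 ERSE genes, 31 were among the genes counted, and only 16 had 10 counts or more in every library and were tested. Genes under that limit included Calr4, Esp15 and Xlr3a, each with 0 counts in every library. The 16 ERSE genes that were tested had a median level of 15.4 CPM per kilobase of exon, a scale that allows genes to be compared with each other. The 6 of them outside the 10 genes and the lists had a median of 5.75 CPM per kilobase. Even among those tested, an ERSE promoter therefore stood before genes of widely different levels in these cells. Their levels ran from the chaperones Calr and Hspa5 down to Ero1b (named Ero1lb in the count annotation) at 1.44 CPM per kilobase and Derl3 at 0.205.

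Levels of the 5 ER chaperones were among the highest in the cells, apart from Pdia4. Serpinh1 encodes HSP47, the chaperone that binds procollagen, and lies at chr7:99345376-99353239 on the minus strand of GRCm38 (ENSMUSG00000070436). It had 52144, 56348 and 46489 counts in replicates 1, 2 and 3, which gave 428, 468 and 426 CPM per kilobase and a mean of 441 ± 23.8 (SD, n = 3). Replicate 2 was the highest and the other two libraries were close to each other. Serpinh1 ranked 54 among 12087 tested protein-coding genes by this measure, whose median was 7.19 CPM per kilobase.

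Calr encodes calreticulin, a lectin-like chaperone that binds glycoproteins and calcium in the ER, and lies at chr8:84841850-84846934 on the minus strand (ENSMUSG00000003814). It had 62852, 61138 and 54876 counts, the highest of the 10 genes, and 437, 431 and 426 CPM per kilobase with a mean of 431 ± 5.44 (SD, n = 3). Its libraries differed by 1.03-fold at most, and it ranked 55. The ranges of Serpinh1 and Calr over the libraries overlapped, with Serpinh1 between 0.978 and 1.09 times Calr within a library. Their order was thus not separated from the spread between libraries.

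Hspa5 encodes BiP, the HSP70 chaperone of the ER that also holds the stress sensors inactive, and lies at chr2:34771970-34777547 on the plus strand (ENSMUSG00000026864). It had 41091, 40589 and 37728 counts, and 195, 195 and 199.7 CPM per kilobase with a mean of 196 ± 2.86 (SD, n = 3). Replicate 3 was slightly above the others, and the gene ranked 160. Calr exceeded Hspa5 by 2.20-fold ± 0.0564 (SD, n = 3) in CPM per kilobase.

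Hsp90b1 encodes GRP94, the HSP90 of the ER, and lies at chr10:86690209-86705509 on the minus strand (ENSMUSG00000020048). It had 34989, 31487 and 30881 counts, and 174, 158 and 171 CPM per kilobase with a mean of 168 ± 8.27 (SD, n = 3). Replicate 2 was the lowest, the reverse of Serpinh1, and Hspa5 was above Hsp90b1 in every library by 1.12-fold to 1.23-fold. Of its exonic length, 15.7% is overlapped by 1810014B01Rik, Gm15344 and Gm25745, and other genes share 13.8% of all 50-base stretches of its mRNA, so its count is less certain than those of the other chaperones. With the overlapped bases left out of the length but all reads kept, Hsp90b1 came to 199 CPM per kilobase and its range overlapped that of Hspa5.

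Pdia4 encodes ERp72, a protein disulfide isomerase, and lies at chr6:47796141-47813430 on the minus strand (ENSMUSG00000025823). It was the lowest of the chaperones with 6217, 6281 and 6167 counts, and 51.9, 53.1 and 57.5 CPM per kilobase with a mean of 54.2 ± 2.95 (SD, n = 3). Replicate 3 was the highest. The gene still ranked 965, in the upper part of the tested coding genes (percentile 92.0).

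The 3 stress transcription factors were spread over a 16.2-fold range of levels. Atf4, which lies at chr15:80255184-80257541 on the plus strand (ENSMUSG00000042406), had 24984, 25047 and 22567 counts and 212, 216 and 214 CPM per kilobase. Its mean of 214 ± 1.64 (SD, n = 3) ranked 149 and exceeded that of Hspa5. Atf4 mRNA is known to be abundant without stress and to be controlled mainly at translation. The range of Atf4 over the libraries did not overlap that of Hspa5, and Atf4 was 1.07-fold to 1.11-fold the higher within each library.

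Ddit3, which encodes the pro-apoptotic factor CHOP, lies at chr10:127290774-127296288 on the plus strand (ENSMUSG00000025408). It had 2361, 2709 and 2291 counts, and 27.6, 32.1 and 29.9 CPM per kilobase with a mean of 29.9 ± 2.24 (SD, n = 3). Replicate 2 was the highest and replicate 1 the lowest, and the gene ranked 1966. Gm4189 and Mars overlap 4.73% of its exonic length, and Mars shares 2.26% of its 50-base stretches.

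Xbp1 lies at chr11:5520659-5525893 on the plus strand (ENSMUSG00000020484) and was the lowest of the 10 genes per kilobase of merged exon, though not per kilobase of coding transcript, where Trib3 was lower (19.7 against 31.2). It had 2115, 2162 and 1895 counts, and 13.0, 13.5 and 13.1 CPM per kilobase with a mean of 13.2 ± 0.263 (SD, n = 3). Xbp1 ranked 4176, above the median of tested coding genes. Within a library Atf4 exceeded Xbp1 by 16.2-fold ± 0.229 and Ddit3 by 7.19-fold ± 0.486, and Ddit3 exceeded Xbp1 by 2.26-fold ± 0.132 (SD, n = 3). None of these 3 ranges overlapped another.

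Both ATF4 targets lay between Hsp90b1 and Xbp1. Asns encodes asparagine synthetase and lies at chr6:7675169-7693254 on the minus strand (ENSMUSG00000029752). It had 8363, 8264 and 7052 counts, and 61.3, 61.3 and 57.7 CPM per kilobase with a mean of 60.1 ± 2.07 (SD, n = 3), ranking 837. Replicate 3 was the lowest. The range of Asns did not overlap that of Pdia4, although in replicate 3 Asns was only 1.003-fold above it, and the ranges overlapped once exonic bases shared with other genes were left out of the length.

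Trib3 encodes a pseudokinase that is induced by ATF4 and CHOP and lies at chr2:152337422-152344032 on the minus strand (ENSMUSG00000032715). It had 2015, 2158 and 1589 counts, and 19.0, 20.6 and 16.7 CPM per kilobase with a mean of 18.8 ± 1.95 (SD, n = 3), ranking 3103. Replicate 2 was the highest and replicate 3 the lowest. Asns was above Trib3 in every library, by 3.22-fold ± 0.237 (SD, n = 3). This fold depended on the length used, since per kilobase of coding transcript Asns was at 139 CPM and Trib3 at 19.7.

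**Figure D1:**
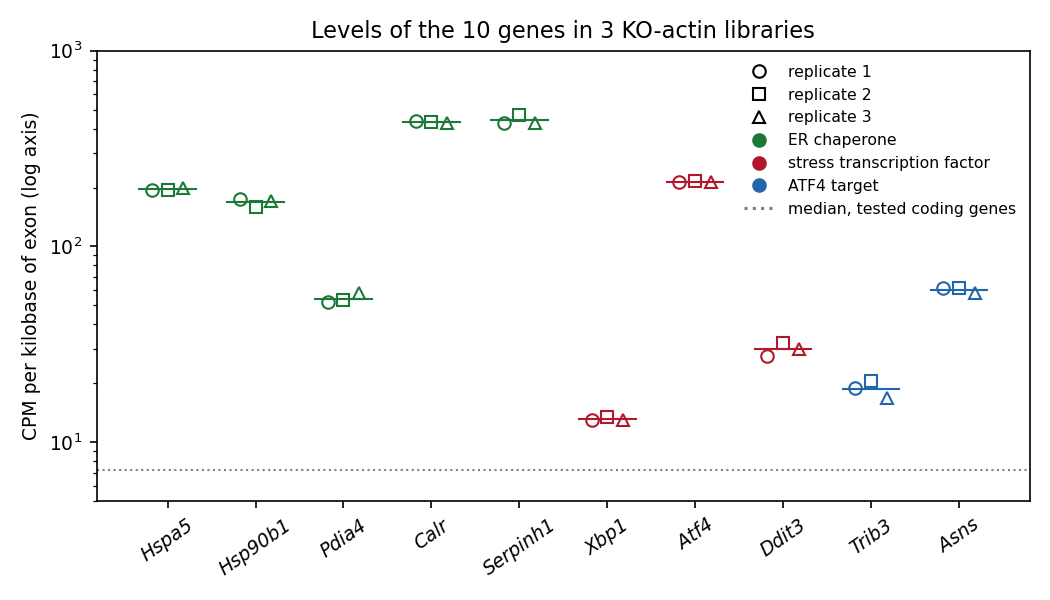
Level of each of the 10 genes in CPM per kilobase of exon on a log axis, with 1 symbol per library, a line at the mean of the 3 libraries and a dotted line at 7.19, the median of tested protein-coding genes. Serpinh1 and Calr sit together at the top (441 and 431), Atf4 stands beside Hspa5 (214 and 196), and Xbp1 is the lowest at 13.2.

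From high to low the order of levels per kilobase was Serpinh1, Calr, Atf4, Hspa5, Hsp90b1, Asns, Pdia4, Ddit3, Trib3 and Xbp1. Of the 9 pairs of neighbours in this order, only Serpinh1 and Calr had ranges that overlapped. With overlapped bases left out of the length, Hsp90b1 passed Hspa5 and 3 pairs overlapped, namely Serpinh1 and Calr, Hsp90b1 and Hspa5, and Asns and Pdia4. Per kilobase of coding transcript no neighbours overlapped, and the mean levels were 713 for Serpinh1, 569 for Calr, 423 for Atf4, 343 for Hsp90b1, 264 for Hspa5, 139 for Asns, 68.7 for Ddit3, 54.2 for Pdia4, 31.2 for Xbp1 and 19.7 for Trib3. The widest steps were from Hsp90b1 to Asns at 2.79-fold and from Calr to Atf4 at 2.02-fold. Together the 10 genes took 0.476% of all counts, of which the chaperones took 0.396%, the transcription factors 0.0599% and the ATF4 targets 0.0204%.

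Levels of the chaperones were then compared with those of the stress transcription factors within each library, in CPM per kilobase. In 12 of 15 pairs the chaperone was above the factor in every library, with ranges that did not overlap. The 3 exceptions were all pairs with Atf4. Hspa5 was at 0.917, 0.904 and 0.932 times Atf4, a mean of 0.918 ± 0.0143 (SD, n = 3). Hsp90b1 was at 0.785 ± 0.0440 times Atf4 and Pdia4 at 0.253 ± 0.0134 times Atf4. Only Calr, at 2.02-fold ± 0.0377, and Serpinh1, at 2.06-fold ± 0.0990, were above Atf4.

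Against Xbp1 the chaperones were 4.11-fold ± 0.261 (Pdia4) to 33.3-fold ± 1.13 (Serpinh1) higher, with Calr at 32.7-fold ± 0.812, Hspa5 at 14.9-fold ± 0.438 and Hsp90b1 at 12.7-fold ± 0.869 (SD, n = 3). Against Ddit3 they were 1.82-fold ± 0.143 (Pdia4) to 14.8-fold ± 0.648 (Serpinh1) higher, with Calr at 14.5-fold ± 1.23, Hspa5 at 6.60-fold ± 0.495 and Hsp90b1 at 5.65-fold ± 0.682. The fold of each chaperone was highest over Xbp1 and lowest over Atf4, which only restates the order of the 3 factors. Averaged on the log2 scale, the chaperones stood above the factors by 2.24, 2.15 and 2.22 in the 3 libraries, a mean of 2.21 ± 0.05 (SD, n = 3) or 4.61-fold. The geometric means were 202 ± 1.91 CPM per kilobase for the chaperones, 43.9 ± 1.47 for the factors and 33.6 ± 2.28 for the ATF4 targets. The size of this difference depended on the length used. With the mean length of the coding transcripts in place of all merged exons it was 1.57 on the log2 scale, Hsp90b1 rather than Hspa5 stood next to Atf4, and Pdia4 fell below Ddit3, which left 11 of 15 pairs with the chaperone above. No p was computed for these differences, since 3 libraries cannot give a two-sided sign-flip p under 0.25.

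**Figure D2:**
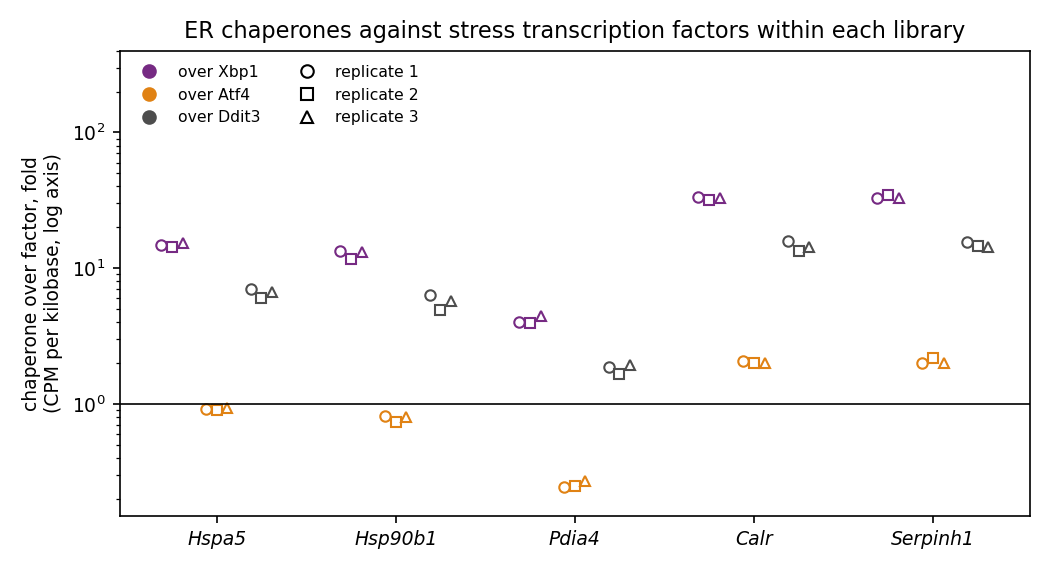
Each ER chaperone divided by each stress transcription factor within a library, as a fold in CPM per kilobase on a log axis, with colour for the factor, symbol shape for the library and a line at 1. Folds over Xbp1 and Ddit3 are all above 1, and over Atf4 only Calr and Serpinh1 are, near 2.02 and 2.06.

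The spread of each gene between the 3 libraries was set against counting error with a chi-square test over all tested genes (2 degrees of freedom, adjusted by Benjamini-Hochberg). This test compares libraries of 1 condition and says nothing of a condition. It called 8 of the 10 genes, while it called 43.9% of all tested genes. Deeply counted genes are called more often, and of the 7468 genes with 1000 counts or more in each library, as each of the 10 had, it called 59.8%. The differences were small. Over the 10 genes the highest library exceeded the lowest by 1.02-fold (Atf4) to 1.23-fold (Trib3), and 0 of 10 passed both the test and 1.5-fold, against 3.84% of all tested genes.

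Both genes that were not called were transcription factors. Xbp1 had an adjusted p of 0.537 in this chi-square test and a highest library 1.04-fold above the lowest, and its coefficient of variation of 1.99% was under the 2.21% that counting alone gives. Atf4 had an adjusted p of 0.329, with a coefficient of variation of 0.765% against 0.643% from counting. The third factor, Ddit3, was called with an adjusted p of 4.94e-06, was 1.16-fold higher in replicate 2 than in replicate 1 and varied by 7.49%. Trib3, a target of the factor that Ddit3 encodes, varied most at 10.4%, with an adjusted p of 2.66e-08 and replicate 2 above replicate 3.

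All 5 chaperones were called. Calr and Hspa5 were called at a spread of only 1.03-fold each, with adjusted p of 0.000404 and 0.00126, which shows how small a difference these depths resolve. Serpinh1 (1.10-fold, adjusted p of 1.21e-64) was highest in replicate 2, while Hsp90b1 (1.10-fold, adjusted p of 9.93e-34) was lowest there. Pdia4 (1.11-fold, adjusted p of 1.62e-07) was highest in replicate 3, and Asns (1.06-fold, adjusted p of 0.000581) was lowest in replicate 3. The calls rested in part on single libraries. Without replicate 2 Hsp90b1 and Serpinh1 were no longer called, and without replicate 3 Hspa5, Pdia4 and Asns were no longer called. Of all tested genes, 12.5% were called without replicate 2 and 34.0% without replicate 3.

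**Figure D3:**
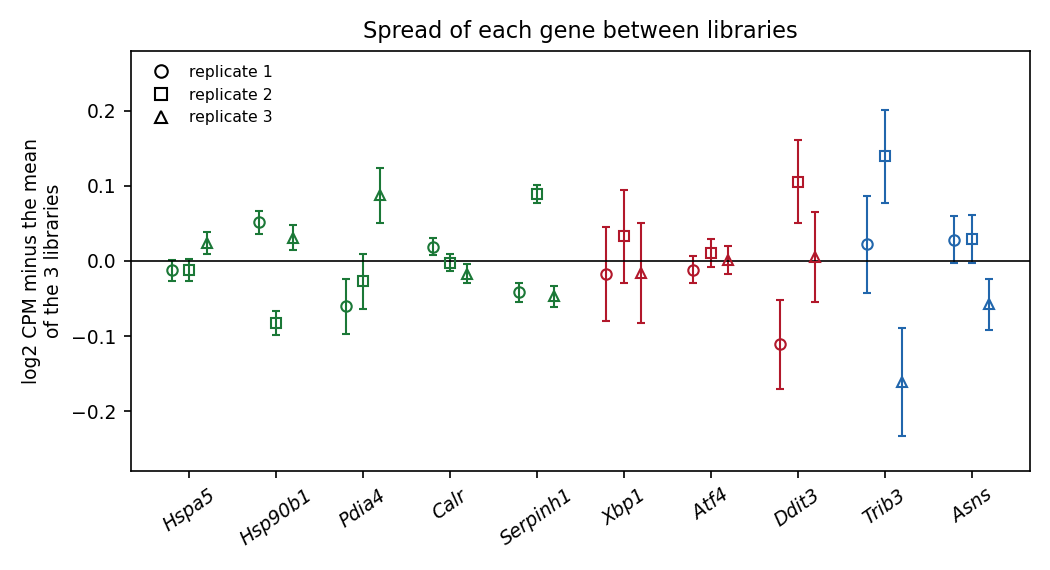
Log2 CPM of the 10 genes in each library, less the mean over the 3 libraries, with bars of 2 counting standard errors on each side. Trib3 and Ddit3 show the widest spread, Serpinh1 and Hsp90b1 the widest relative to their bars, and Xbp1 and Atf4 stay within theirs.

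Replicate 2 stood apart from the other libraries by GC content, and this bears on several of the 10 genes. In 20 bins of tested genes by transcript GC content, the median of log2 CPM in replicate 2 minus the mean of replicates 1 and 3 ran from -0.17 in the lowest bin (median GC 39.2%) to 0.16 in the highest (61.0%). Of all genes called by the chi-square test, 59.2% had replicate 2 as the library farthest from the mean. Hsp90b1, at 42.9% GC, differed by -0.12 where its bin had a median of -0.10. Serpinh1, at 57.3% GC, differed by 0.13 where its bin had 0.10. Trib3, at 59.2% GC, differed by 0.21 where its bin had 0.12.

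With library sizes set within GC bins, the difference of Hsp90b1 shrank to -0.02 and it was no longer called (adjusted p = 0.0827). Serpinh1 then differed by 0.03 and was still called (adjusted p = 0.000323), and Trib3 differed by 0.09 and was still called (adjusted p = 0.00396). Ddit3, at 51.7% GC, kept most of its difference, 0.13 of 0.16, and was still called (adjusted p = 0.000108). Atf4 went the other way. At 55.1% GC it differed by only 0.02 where its bin had 0.08, so that after this scaling it stood at -0.06 and was called (adjusted p = 9.23e-07). The count of called genes was again 8 of 10, beside 28.8% of all genes under that scaling. The share among genes with 1000 counts or more in each library was not computed there, so the 28.8% is not matched for depth. Whether GC content causes these differences was not tested.

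**Figure D4:**
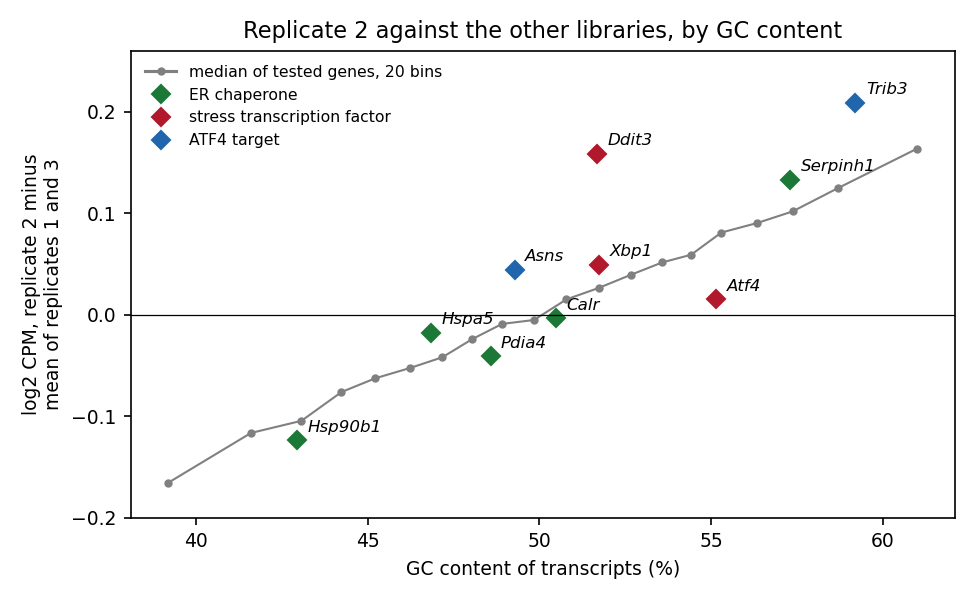
Log2 CPM of replicate 2 minus the mean of replicates 1 and 3 against transcript GC content in percent, with diamonds for the 10 genes and a grey line for the medians of 20 bins of tested genes. The line rises from -0.17 to 0.16, Hsp90b1 and Serpinh1 lie near it, Ddit3 lies above it and Atf4 below it.

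Among the other ER chaperones and folding enzymes, a list of 20 genes, all 20 were detected at 1 CPM or more in every library, where 51.5% of the 21624 protein-coding genes were. The chi-square test called 12 of the 20, against 43.9% of all tested genes and 59.8% of those with 1000 counts or more in each library. Their median level was 32.4 CPM per kilobase, against 5.88 over all tested genes and 7.19 over tested protein-coding genes. The highest were P4hb at 403 ± 9.83, Pdia3 at 186 ± 3.74 and Canx at 142 ± 4.84 CPM per kilobase (SD, n = 3). P4hb encodes a disulfide isomerase that is also a subunit of collagen prolyl 4-hydroxylase, Pdia3 encodes the isomerase that works with calnexin and calreticulin, and Canx encodes calnexin. The lowest were Dnajb9, a BiP cochaperone, at 3.47 ± 0.0696 and Ero1lb, an oxidase of the ER, at 1.44 ± 0.0513.

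Within families of related function, the 10 genes took different places. Calr exceeded Canx by 3.03-fold ± 0.115 in CPM per kilobase. Pdia4 was well under its relatives, with P4hb 7.46-fold ± 0.532 and Pdia3 3.44-fold ± 0.136 above it. Hspa5 exceeded Hyou1, another HSP70-type chaperone of the ER, by 6.19-fold ± 0.157 (SD, n = 3). Summed over these 25 chaperones and enzymes, the 5 named first held 49.7% ± 0.0748 of the CPM per kilobase (SD, n = 3), and this share stayed between 49.6% and 49.7% in the 3 libraries. Serpinh1 alone held 16.9% ± 0.763, Calr 16.6% ± 0.263 and Hspa5 7.56% ± 0.157, while Hsp90b1 held 6.46% ± 0.373 and Pdia4 2.09% ± 0.122. Serpinh1, Calr and P4hb together made up 49.1% ± 0.880.

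The sensors of ER stress and the proteins that process them had lower mean levels than each of the 5 chaperones. Of 10 listed genes 9 were detected and 8 of the 9 tested were called, with a median of 12.8 CPM per kilobase over those tested. The counts of calls in this and the other lists stand beside 43.9% of all tested genes and 59.8% of those with 1000 counts or more in each library. Ern1, which encodes IRE1, was at 4.61 ± 0.248, Eif2ak3, which encodes PERK, at 3.19 ± 0.205 and Atf6 at 12.8 ± 0.553 CPM per kilobase (SD, n = 3). Atf6 was thus above Ern1 by 2.77-fold ± 0.0928 and above Eif2ak3 by 4.01-fold ± 0.405, and Ern1 was above Eif2ak3 in every library by 1.27-fold to 1.58-fold. Xbp1 and Atf6 were not separated, with Xbp1 at 0.975 to 1.09 times Atf6.

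The relative of ATF6, Atf6b, was the highest of the list at 48.9 ± 2.60 CPM per kilobase and 3.84-fold ± 0.335 above Atf6. Of the proteases that cut ATF6, Mbtps1 was at 20.2 ± 0.441 and Mbtps2 at 4.77 ± 0.221. The related membrane-bound factors were at 33.9 ± 1.15 for Creb3, 26.6 ± 2.57 for Creb3l1 and 3.88 ± 0.117 for Creb3l2, the gene of this list that was tested and not called. Ern2, the form of IRE1 known from gut epithelium, had 0 counts in all 3 libraries, under a floor of 3 counts that corresponds to 0.0601 to 0.0676 CPM.

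All 11 listed genes of eIF2 signalling, the kinases other than PERK, the phosphatase subunits, eIF2B and Eif2s1, were detected, and 6 of 11 were called. Their median was 25.2 CPM per kilobase, with Eif2b5 at 37.3 ± 1.05, Eif2b2 at 36.7 ± 2.01 and Eif2b1 at 32.6 ± 0.877 the highest, which encode subunits of eIF2B, the exchange factor of eIF2. The kinase for amino acid shortage, Eif2ak4 (GCN2), was the lowest of these 11 at 3.98 ± 0.165, and Eif2b3 was next at 8.55 ± 0.353. Eif2ak3, the PERK gene listed with the sensors, had a lower mean of 3.19 ± 0.205.

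Of 21 other genes of the ATF4 and CHOP pathway, 18 were detected, 20 were tested and 13 were called, and the median over those tested was 27.2 CPM per kilobase. The highest were enzymes of serine and glycine synthesis, Psat1 at 162 ± 1.90, Phgdh at 133 ± 3.54 and Shmt2 at 122 ± 3.71 CPM per kilobase (SD, n = 3). Psat1 exceeded Asns by 2.71-fold ± 0.115. The factors related to ATF4 were lower than Atf4 itself, which exceeded Atf5 by 3.69-fold ± 0.306 and Atf3 by 27.9-fold ± 1.71.

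Secreted proteins of this pathway had few counts. Stc2, which encodes stanniocalcin, had 14, 12 and 21 counts and 0.0640 ± 0.0235 CPM per kilobase. Fgf21, a stress-induced hormone, had 14, 2 and 6 counts and was not tested. Gdf15, a cytokine induced by CHOP, had 19, 46 and 23 counts and was called with replicate 2 above replicate 1 by 2.45-fold. Gdf15 was singled out with its values known.

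The list of ER-associated degradation, the pathway that returns misfolded protein to the cytosol, had 13 of 14 genes detected and 9 of 14 called, with a median of 14.1 CPM per kilobase. Vcp, the ATPase that pulls substrates out of the ER, was the highest at 83.1 ± 2.07, and Derl1 was at 57.2 ± 1.38. The lowest were Erlec1, a lectin, with 912 to 969 counts and Derl3 at 0.205 ± 0.0429, with 16 to 25 counts. Derl3 is thus an ERSE gene near the bottom of the measured range, while its relative Derl1 was among the highest of the list.

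Cargo and collagen enzymes were described because Serpinh1 is known as a chaperone of collagen. Of 7 genes of secreted matrix, all were detected and 6 were called, with a median of 34.8 CPM per kilobase. Col1a1 was at 618 ± 39.9, Sparc at 411 ± 12.2 and Fn1 at 306 ± 1.51 CPM per kilobase (SD, n = 3), and Col3a1 was at 27.3 ± 0.673. Col1a1 and Serpinh1 were both highest in replicate 2, and Col1a1 was 1.41, 1.42 and 1.38 times Serpinh1, a mean of 1.40-fold ± 0.0216. Being high in replicate 2 was not particular to this pair. There 6 of the 7 matrix genes exceeded their mean log2 CPM in replicates 1 and 3. So did the median gene in the GC bin of Serpinh1, by 0.10 on the log2 scale. The partner chain of type I collagen, Col1a2, was at 19.9, 22.8 and 20.3 CPM beside 3968, 4353 and 3852 CPM for Col1a1. Per kilobase Col1a2 was at 1.69 ± 0.128, and Col1a1 exceeded it by 366-fold ± 10.5.

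Of 17 enzymes and transport factors of collagen, 16 were detected and 12 of the 16 tested were called, with a median of 22.9 CPM per kilobase. Crtap, a partner of prolyl 3-hydroxylase, was the highest at 74.9 ± 6.79, followed by the isomerase Fkbp10 at 56.7 ± 1.91 and the galactosyltransferase Colgalt1 at 52.7 ± 1.17. P3h3 was the lowest of those detected at 1.18 ± 0.266 CPM per kilobase and was called at 1.58-fold. Colgalt2 had 3, 1 and 0 counts, at or under the floor in every library.

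**Figure D5:**
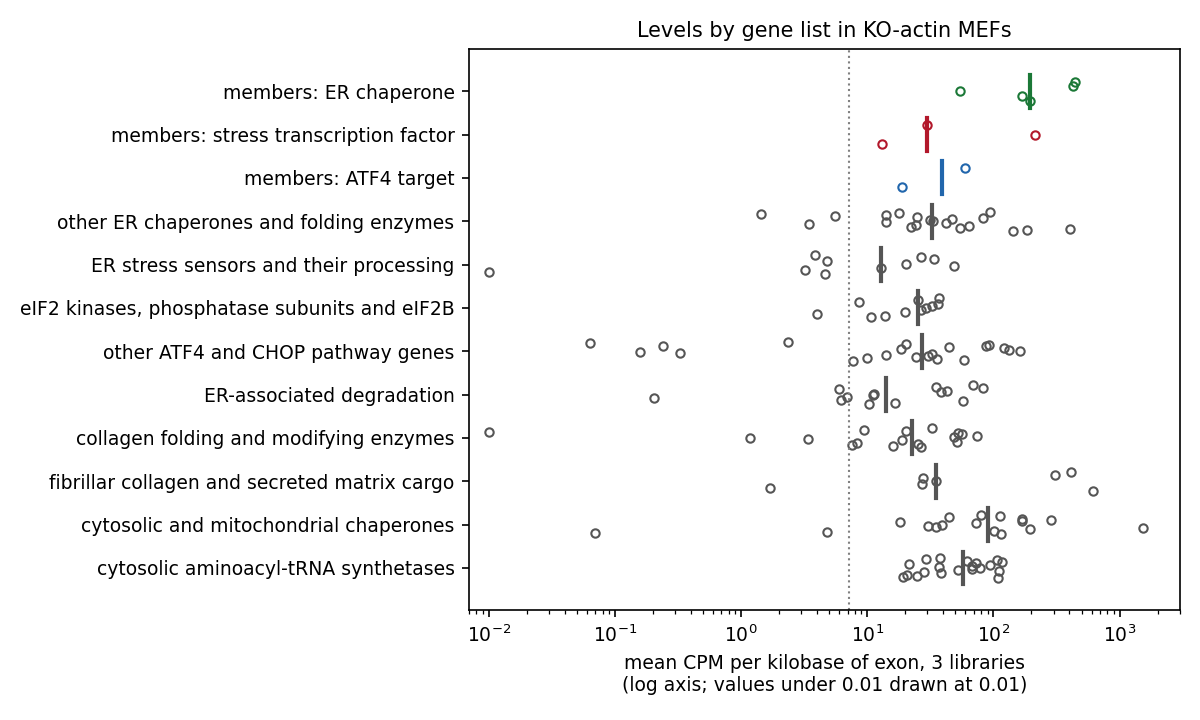
Mean level of each gene in CPM per kilobase of exon on a log axis, by list, with a bar at the median of the tested genes of each list and a dotted line at 7.19, the median of tested protein-coding genes. Values under 0.01 are drawn at 0.01, which holds for Ern2 and Colgalt2, and the medians run from 12.8 for the sensors to 196 for the 5 ER chaperones.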

How the data were processed

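PolyA RNA of 3 KO-actin libraries was analysed. For each Ensembl gene the authors deposited a raw, unnormalized read count. The submitters' processing notes name Trimmomatic, FastQC, HISAT2 and HTSeq, and mm10 and GRCm38. Their versions, the annotation, the read length and the strand and multi-mapping settings are not given in the sources used here, so antisense and overlapping genes cannot be told apart. No row lacked a gene (0 rows).

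GENCODE M21 (GRCm38) gave symbols, coordinates, merged exonic lengths and GC content, with a symbol for 46091 of 46603 genes. The other 512 held 0.0544% of counts. CPM used TMM factors of 1.00, 0.994 and 1.01 (edgeR 4.0.16, R 4.3.3) and was divided by exonic length in kilobases (1000 bases). Counts were set against scaled library sizes by a chi-square over 13814 genes, called at an adjusted p under 0.05. The common biological coefficient of variation was 5.24%. The floor of 3 counts covers counting error only. Promoters came from RefSeq (GRCm38.p6), and all 10 genes matched. Other values used Python 3.11.15, numpy 2.4.6, pandas 2.3.3, scipy 1.17.1 and matplotlib 3.10.9.

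On simulated data for 13814 genes with 200 changed in replicate 2, the chi-square called 114 at 1.2-fold (6 false calls), 166 at 1.5-fold (12 false) and 185 at 2-fold (8 false). Apart from those changes, the simulated counts held counting error alone, without the GC trend or further spread of the real libraries. The false calls are therefore not a rate for these data.

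The genes and lists were chosen with earlier results of these data known. The rule named the 10 genes, all sensors and, of each list, the 3 highest and 2 lowest genes and those at or under 3 counts, some of which are not reported here; other genes, and the subset with at least 1000 counts, were chosen after values were seen. Alternatives were DESeq2 1.42.0 size factors, total counts, GC bins, count filters of 1 and 100, other lengths and leaving out each replicate.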

Additional observations from a re-analysis of the deposited data

How the results depend on the processing

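With DESeq2 size factors, total counts, or a filter of 1 or 100 counts, 8 of the 10 genes varied beyond counting error, the same genes each time. Of all tested genes, 43.9% did so with DESeq2 size factors and with total counts, 34.6% with a filter of 1 count and 52.0% with 100 counts. With library sizes set within GC bins the count over all genes fell from 6063 to 3971, or 28.8% of those tested. The count over the 10 genes was 8, with Hsp90b1 lost and Atf4 gained. Leaving out each replicate gave 1748 to 4786 genes in all and 5 to 8 of the 10. Of the genes tested, 33.1% were called without replicate 1, 12.5% without replicate 2 and 34.0% without replicate 3. The share among genes with 1000 counts or more in each library was computed only with the main settings. The lowest count over all genes, 1748 or 12.5% of those tested, was without replicate 2, and the lowest over the 10 genes, 5, without replicate 3. The log2 difference between chaperones and stress transcription factors, 2.21, was 1.57 with the mean length of coding transcripts, 2.60 with no division by length, 2.33 from summed levels and 1.93 without Serpinh1. It was 2.23 without overlapped exons and 2.19 to 2.23 with each replicate left out. The coding transcript length moved 8 of the 10 levels by more than 1 SD and changed 6 places in their order. The length without overlapped exons moved 1 level (Hsp90b1, to 199 CPM per kilobase) and 2 places, and DESeq2 size factors, total counts and leaving out a replicate moved no level. Of 137 genes in the lists, 130 were detected, and 130 to 133 under the alternatives. No paired analysis was possible because there was a single condition.

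Levels between genes rest on the exonic length of the annotation, which need not be the transcript these cells use. Depth was enough to call differences of 1.03-fold in Calr and Hspa5, and genes with under 10 counts in any library were not tested. A single condition with 3 libraries gives no test of an effect of β-actin.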

Other observations

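Chaperones outside the ER were measured beside those inside it. Of 17 cytosolic and mitochondrial chaperones, 16 were detected, 14 of the 16 tested varied between libraries beyond counting error (43.9% of all tested genes did, and 59.8% of those with 1000 counts or more in each library), and the median was 90.9 CPM per kilobase. Hsp90ab1, the constitutive cytosolic HSP90, was the highest at 1529 ± 3.87 CPM per kilobase (SD, n = 3) and exceeded its ER relative Hsp90b1 by 9.12-fold ± 0.439. The mitochondrial chaperonin Hspd1 was at 284 ± 16.2 and Hsp90aa1 at 194 ± 15.7. Among HSP70 genes the mRNA of the ER form was the higher per kilobase of merged exon. Hspa5 exceeded cytosolic Hspa8 by 1.72-fold ± 0.113 and mitochondrial Hspa9 by 1.17-fold ± 0.0427. These folds were not computed with other lengths. The heat-inducible pair was low, with Hspa1b at 4.85 ± 0.854 and Hspa1a at 0.0693 ± 0.0366 CPM per kilobase. These are near-identical genes, so how reads were split between them is uncertain.

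Aminoacyl-tRNA synthetases, many of which are known targets of ATF4, were detected for all 20 cytosolic genes listed, and 14 of 20 were called, beside the same shares. Their median was 57.1 CPM per kilobase, and Asns was at 60.1. The highest were Sars at 117 ± 2.13, Gars at 111 ± 2.08 and Aars at 109 ± 4.13, and the lowest were Eprs at 20.8 ± 0.705 and Cars at 19.4 ± 0.316 (SD, n = 3). Of the 13 matched by symbol to the RefSeq promoters searched, 3 held TGATGNAAT. This compares with 0.965% of all promoters and 1.08% of all genes with a promoter. TGATGNAAT was also found in 2 of the 20 other genes of the ATF4 and CHOP pathway, and in 0 of 2 for Asns and Trib3. Forms of the C/EBP-ATF response element with another last base were not searched, in the synthetases or in Asns and Trib3.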
